A study of Rattus norvegicus with 7 samples.

Results

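Human miR-302d-3p and miR-373-3p are a pair of microRNAs with the same seed, the short stretch near the 5′ end that selects most target mRNAs, and their libraries were compared here directly, with no control between them. The comparison covers the 12330 of 17141 listed genes that had a mean of at least 1 RPKM (reads per gene, divided by gene length and by library size) over the 7 libraries of the series, and 11311 of these are protein-coding. A change is log2 of (RPKM + 1) with miR-302d-3p over (RPKM + 1) with miR-373-3p, so a value above 0 means more of a transcript with miR-302d-3p, and the added 1 shrinks the change of weakly expressed genes. Just inside the limit lay Sh3rf1, with a mean of 1.00 RPKM and a change of -0.05, and just outside it Klhdc7a, with 0.999 RPKM and -0.14.

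Each library came from wild-type Wistar rat ventricular cardiomyocytes taken on postnatal day 0, plated after removal of cells that attach quickly, transfected with 25 nM of a single synthetic miRNA using the lipid reagent Lipofectamine RNAiMAX, and harvested 72 h later. The other 5 libraries were transfected with cel-miR-67, a nematode miRNA that the authors' deposited ratios use as the denominator, or with miR-199a-3p, miR-590-3p, miR-33b* or miR-1825, at the same dose and time. The study asked which pathways are shared by miRNAs that make cardiomyocytes proliferate. There was 1 library for each miRNA, so no spread between replicates exists for this pair and no test across samples was possible. The sources used here do not give whether the 2 cultures were prepared together, so a difference between cultures and a difference between miRNAs cannot be told apart.

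A miRNA guides an Argonaute protein to sites that pair with its seed, mostly in 3′ untranslated regions, and the mRNA is then destabilised or translated less. The miR-302 and miR-373 families, and their rodent relatives of the miR-290 cluster, share a seed and are known for the fast cell cycle of embryonic stem cells, where they repress inhibitors of the G1 to S transition. Outside the seed their bases differ, and a transfected double-stranded RNA can also be read by sensors of foreign RNA, which switch on type I interferon and a broad set of interferon-induced genes in neighbouring and producing cells alike.

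The rat miR-290 cluster member with this seed is shown to give the shared stretch, since it is what the compared miRNAs have in common. It was not transfected. Capitals mark bases 2 to 8, the seed, in the mature sequence from RefSeq at chr1:74879767-74879789 on the minus strand of GRCr8.
rno-miR-291a-3p: aAAGUGCUuccacuuugugugcc

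The libraries held 31963293 reads in listed genes with miR-302d-3p and 29377003 with miR-373-3p, the range over all 7 libraries being 22616067 to 31963293. Whole reads could be recovered from the deposited RPKM for 100% of genes, and they give each gene a 95% exact (Clopper-Pearson) interval of the ratio of its read rates in the 2 libraries. That interval covers counting error only: it compares these libraries and not the conditions. For a gene of 2 kb, 3 reads were worth 0.0432 RPKM with miR-302d-3p and 0.0489 RPKM with miR-373-3p. Mitochondrial genes took 30.6% of the listed reads with miR-302d-3p and 33.2% with miR-373-3p, within the 27.7% to 41.4% of the series. Cardiac identity was plain in both: Tnnt2, the cardiac troponin T gene, stood at 2355 RPKM with miR-302d-3p and 2191 RPKM with miR-373-3p, and all 14 matched cardiomyocyte markers passed the 1 RPKM limit.

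Few genes separated the pair. At least 2-fold higher with miR-302d-3p were 35 genes, which is 0.284% of those tested, and 17 genes, or 0.138%, were at least 2-fold lower. At 1.5-fold the numbers were 175 higher (1.42%) and 121 lower (0.981%), or 296 in all (2.4%). In reads simulated with counting error alone, 0.218% of 2293 unchanged genes passed 2-fold and 1.13% passed 1.5-fold, in either direction. The median change was 0.00 on the log2 scale, 90.9% of genes lay within 1.25-fold, and the SD over genes was 0.22, where counting error alone would give 0.13. Among the 2466 genes with the highest mean RPKM, 22.9 or more, the SD was 0.17 against 0.053 from counting, so for abundant transcripts most of the scatter was not sampling of reads. The read-rate interval left out a ratio of 1 for 4226 genes (34.3%), 2136 above (17.3%) and 2090 below (17%), but 115 and 58 of these were past 1.5-fold.

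The other 14 pairs of miRNA libraries, which share libraries with one another and with this pair, had SDs between 0.33 and 0.48 and held 164 to 555 genes past 2-fold. On both measures miR-302d-3p and miR-373-3p were the closest of the 15 pairs that can be formed from the 6 libraries other than cel-miR-67.

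Most of the 2-fold differences were in genes with hardly any reads. Of the 52 genes past 2-fold in either direction (0.422%), 41 were short RNA genes: 15 miRNA, 13 snoRNA, 9 snRNA, 3 rRNA and 1 scaRNA rows. Such rows number 588 among those tested, their median length is 107 bases, and their median read number was 12 with miR-302d-3p and 11 with miR-373-3p. Whether the libraries were made to capture RNA this short was not established here, and for 26 of the 41 the counting interval left out 1. Those named by rank among rows that are not protein-coding show the same thinness: AABR07060291.1, a miRNA row with a change of 1.69, rested on 20 reads against 4, and AABR07019083.2, with 1.57, on 26 against 6. The pseudogene AABR07027478.1 had 74 reads against 24 and a change of 1.10. At the other end Mir221, a host-encoded miRNA gene, had 8 reads with miR-302d-3p and 20 with miR-373-3p, a change of -1.16. Mir3074 gave -1.09 from 33 and 66 reads, and AABR07054451.1 gave -1.04 from 16 and 32 reads.

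Among protein-coding genes only 7 of 11311 (0.0619%) were at least 2-fold higher with miR-302d-3p and 0 were 2-fold lower. All 7 had counting intervals above 1. They are Zfp771, Usp18, Hnrnpa0, Mx2, AABR07012583.4, Scand1 and AABR07054716.1, the last of which had 22 reads against 6 and lies outside the rule by which genes were named, so its name was added after its values were seen. At 1.5-fold 74 protein-coding genes (0.654%) were higher and 38 (0.336%) lower, or 112 together (0.99%). Of these 7 genes, Usp18 and Mx2 belong to the interferon response, which is described first.

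**Figure D1:**
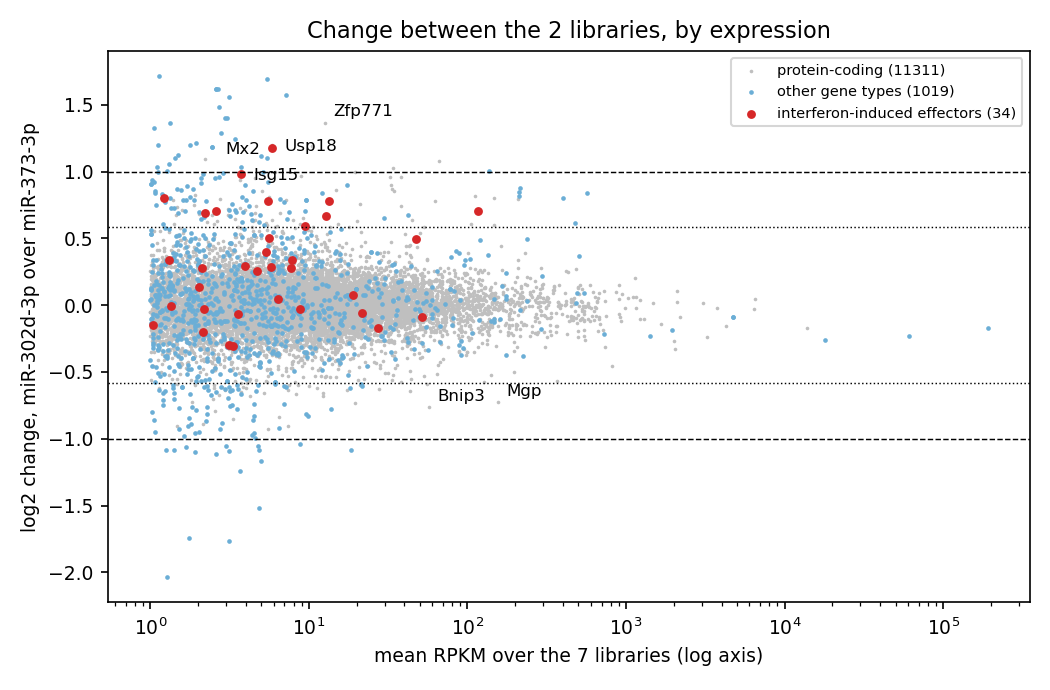
Change between the miR-302d-3p and miR-373-3p libraries (log2 scale, vertical) against mean RPKM over the 7 libraries (log axis, horizontal), 1 point per gene, with dotted lines at 1.5-fold and dashed lines at 2-fold. Protein-coding genes (grey) crowd around 0, other gene types (blue) fan out at low RPKM, and 10 of the 34 interferon-induced effectors (red) lie above the upper dotted line while 0 lie below the lower one.

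Interferon-induced effector genes, the proteins that carry out the antiviral response, were on balance higher with miR-302d-3p. Of 61 genes in the list 34 reached a mean of 1 RPKM; their median change was 0.28, against 0.00 over all genes, and their range was -0.30 to 1.17. At least 1.5-fold higher were 10 of 34, or 29.4%, where 1.42% of all genes were, and 0 were 1.5-fold lower. A change above 0 was seen in 23 of 34, where 50.9% of all genes had one. The counting interval lay above 1 in 20 and below 1 in 2, against 17.3% and 17% of all genes. In a bulk library, less RNA per cell and fewer cells that express a gene cannot be told apart, and this holds for every gene group below. With a pseudocount of 5 RPKM, which damps weakly expressed genes, 3 of the 34 were past 1.5-fold and the median was 0.15.

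The effector with the largest change was Mx2 (ENSRNOG00000001963), a dynamin-like GTPase that traps viral particles. It read 9.81 RPKM with miR-302d-3p and 3.79 RPKM with miR-373-3p, against 8.98 with cel-miR-67, 1.74 with miR-199a-3p, 5.59 with miR-590-3p, 6.61 with miR-33b* and 4.16 with miR-1825. The miR-302d-3p library was thus the highest of the 7, next to cel-miR-67, and miR-373-3p sat in the lower part of the range above miR-199a-3p. Its read rates, from 1269 and 433 reads, had a ratio of 2.59 (95% counting interval 2.32 to 2.89) and the change was 1.17. Isg15, the ubiquitin-like protein that is attached to other proteins during the response, followed with a change of 0.98. Its level was 5.00 RPKM with miR-302d-3p, 2.04 with miR-373-3p and 4.67 with cel-miR-67, and 1.80, 4.30, 4.64 and 3.69 RPKM with miR-199a-3p, miR-590-3p, miR-33b* and miR-1825. Here too miR-373-3p and miR-199a-3p were the low libraries while the other 5 lay at 3.69 RPKM or more.

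Ifi27 was the most abundant of the effectors per length, and it shows the difference far from the counting limit. It stood at 160 RPKM with miR-302d-3p and 97.8 RPKM with miR-373-3p, beside 180 with cel-miR-67, 75.5 with miR-199a-3p, 114 with miR-590-3p, 103 with miR-33b* and 82.2 with miR-1825. The ratio was 1.63 (1.56 to 1.71) from 5751 and 3113 reads, with a change of 0.70. The miR-302d-3p level was the closest of the 6 to that of cel-miR-67, and the miR-373-3p level fell among the remaining 4.

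Among the other effectors past 1.5-fold, Oas1a, a synthetase of the 2-5A messenger that activates RNase L, was at 1.80 RPKM with miR-302d-3p and 0.606 with miR-373-3p, a change of 0.80. Its neighbour Oas1i had a change of 0.69, from 2.82 and 1.37 RPKM; these are close copies, so reads may have been divided between them. Ube2l6, the conjugating enzyme for Isg15, had 21.6 RPKM with miR-302d-3p against 12.2 and a change of 0.78. The miR-302d-3p library was the highest of the 7 for this gene. Parp9, an ADP-ribosyltransferase family member, differed by 0.59 (8.35 against 5.20 RPKM), with miR-373-3p the lowest library of the 7.

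The last effectors past 1.5-fold were Ifi44 with a change of 0.78, Ifit1, which binds viral RNA lacking host caps, with 0.71, and the galectin Lgals9 with 0.67. Ifi44 stood at 8.47 RPKM with miR-302d-3p and 4.51 with miR-373-3p, Ifit1 at 3.51 and 1.77, and Lgals9 at 21.1 and 12.9. For Lgals9 the miR-302d-3p library was also the highest of all, above 15.8 RPKM with cel-miR-67. Just short of the limit came Parp12 with 0.50 and the secreted Lgals3bp with 0.49, the latter from 4554 and 2836 reads.

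The other effectors were within 1.5-fold, 11 of them below 0. The interferon-induced membrane proteins that block virus entry were near level, with Ifitm1 at 0.08, Ifitm2 at -0.09 and Ifitm3 at -0.17, and their intervals included 1. Gbp2, a GTPase induced mainly by interferon gamma, had 5.24 RPKM with miR-302d-3p and 5.53 with miR-373-3p, both above the 3.24 of cel-miR-67. Ifit2 and Samd9l were lower with miR-302d-3p, each by -0.30, with ratios of 0.745 (0.629 to 0.882) and 0.765 (0.687 to 0.851). Ifit2 therefore differed in sign from Ifit1, a member of its own family.

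Summed over the 34 effectors, the level was 492 RPKM with miR-302d-3p and 371 RPKM with miR-373-3p. It was 555 with cel-miR-67, 424 with miR-33b*, 413 with miR-590-3p, 362 with miR-1825 and 310 with miR-199a-3p. The sum was thus highest in the cel-miR-67 library, miR-302d-3p came next, and miR-373-3p was closer to miR-1825. Ifi27 alone made up 160 and 97.8 RPKM of the sums of the pair. Taken per gene as a deviation from its mean over the 7 libraries, the median effector was at 0.07 with miR-302d-3p and -0.19 with miR-373-3p, next to 0.32 with cel-miR-67 and -0.41 with miR-199a-3p. On this per-gene scale the miR-302d-3p library sat mid-range, level with miR-33b* at 0.09 and miR-590-3p at 0.06.

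**Figure D2:**
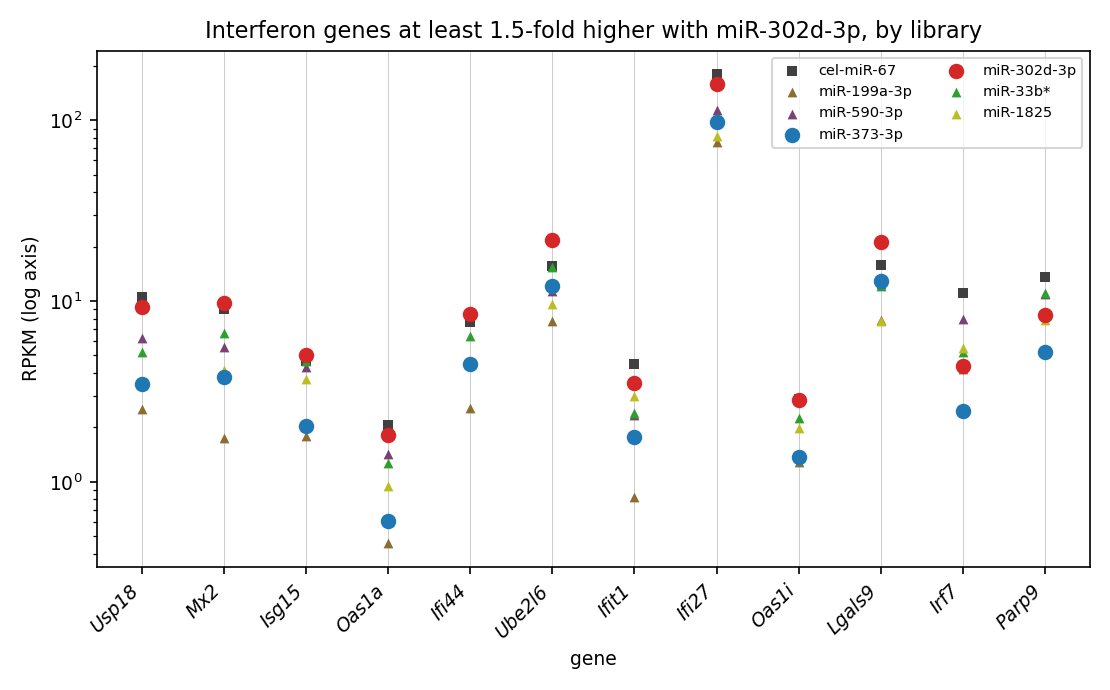
RPKM (log axis) of the 12 interferon genes at least 1.5-fold higher with miR-302d-3p than with miR-373-3p, 10 effectors and the signalling genes Usp18 and Irf7, with 1 point per library. The red point (miR-302d-3p) lies above the blue one (miR-373-3p) for each gene, which the choice of the genes fixes; for Irf7 and Parp9 it lies well below the black square (cel-miR-67), at 4.40 against 11.1 RPKM and 8.35 against 13.6 RPKM.

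Promoters were looked at because many interferon-induced genes carry a short response element there. The core searched was GAAA, any 2 bases and GAAA again, on both strands, from 250 bases before to 50 bases after each start in the RefSeq GRCr8 table; it overlaps the sites of other IRF proteins. The table held a window for 25 of the 34 effectors, and 19 of the 25 (76%) contained the core in any window. So did 240 of the 8055 protein-coding genes tested that had a window (2.98%). Counted by window and not by gene, 3.92% of all 33469 windows held it. Among effectors with a window, the core did not sort them by their change. It was held by 5 of 7 at least 1.5-fold higher (71.4%) and 14 of 18 of the others (77.8%). Mx2 and Isg15, the effectors with the largest changes, had no window and were not searched, and the same holds for Ifit1 and the signalling gene Usp18. A match describes these letters only.

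The stretches below each show 1 match to the core upstream of the start, for the 2 oligoadenylate synthetase genes, Ifi27 and Irf7. Capitals mark the match, and each runs 5′ to 3′ on the strand of its gene, at chr12:41330405-41330454 (plus), chr12:41285170-41285219 (plus), chr6:128355208-128355257 (plus) and chr1:205800063-205800112 (minus) of GRCr8. For Irf7 the match is on the opposite strand.
Oas1a: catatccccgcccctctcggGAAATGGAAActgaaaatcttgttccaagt
Oas1i: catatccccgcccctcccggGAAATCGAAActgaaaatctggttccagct
Ifi27: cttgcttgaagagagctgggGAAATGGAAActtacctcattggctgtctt
Irf7: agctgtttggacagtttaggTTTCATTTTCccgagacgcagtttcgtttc
The matches start 41, 36, 84 and 69 bases before the start in that order. In Oas1a and Oas1i a second, overlapping match starts at 35 and 30 bases before the start, and Ifi27 has another, not printed, at 169 bases. Ifi44 and Lgals9 also held the core, nearer their starts, while the windows of Ube2l6 and Parp9 held none.

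Receptor and signalling genes had a lower median change than the effectors, and 2 genes stood out. Of 18 such genes 15 were measured. Their median change was 0.08, their range was -0.24 to 1.20, and 2 (Usp18 and Irf7) were at least 1.5-fold higher. Usp18 (ENSRNOG00000037198), which removes Isg15 from proteins and dampens the interferon receptor, had the second largest change of the named protein-coding genes, 1.20. It read 9.25 RPKM with miR-302d-3p and 3.47 RPKM with miR-373-3p, against 10.6 with cel-miR-67, 2.51 with miR-199a-3p, 6.27 with miR-590-3p, 5.19 with miR-33b* and 3.56 with miR-1825. Only cel-miR-67 was higher than miR-302d-3p, and miR-373-3p was among the 3 libraries below 4 RPKM. Irf7, the transcription factor that amplifies interferon production, was lowest of the 7 libraries with miR-373-3p at 2.46 RPKM. With miR-302d-3p it reached 4.40 RPKM, still under the 5.24, 5.52, 7.95 and 11.1 RPKM of miR-33b*, miR-1825, miR-590-3p and cel-miR-67.

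Core members of the pathway differed little. Stat2 was at 3.59 RPKM with miR-302d-3p and 3.18 with miR-373-3p (0.13) and Irf9 at 11.3 and 9.45 (0.24). The receptor chain Ifnar1 was level at 0.03. Its partner Ifnar2 was lower with miR-302d-3p by -0.24, and the kinase Jak1 by -0.19; both were lowest of the 7 libraries there, with intervals below 1.

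Sensors of foreign RNA and their adaptors had a median change of 0.22 over 9 measured genes of 16. Above 0 were 8, where 50.9% of all genes were, and 0 were past 1.5-fold. Ddx58, which encodes the sensor RIG-I, was at 3.74 RPKM with miR-302d-3p and 2.24 with miR-373-3p, and 2.24 was the lowest value of the 7. Its change was 0.55 and its ratio 1.67 (1.34 to 2.10). Ifih1, which encodes MDA5, had a change of 0.45, with its highest level of all libraries at 4.37 RPKM with miR-302d-3p. The adaptor Mavs and the kinase Tbk1 were level at -0.01 and 0.02. Ddx58 and Ifih1 are themselves interferon-induced.

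Antigen processing genes had a median of 0.09 over 18 measured genes. Above 0 were 13, where 50.9% of all genes were, and 0 were past 1.5-fold in either direction. The class I genes RT1-CE16 (0.38) and RT1-S3 (0.37) and the peptide-loading factor Tapbp (0.36) led; the RT1 genes are near-identical copies, so their single values are uncertain. Chemokines and inflammatory genes had a median of -0.08 over 22 genes, 15 below 0, with 7 intervals below 1 and 5 above. Over all genes 49.1% were below 0, and 17% of intervals lay below 1 and 17.3% above. Ccl7, a monocyte attractant, was past 1.5-fold lower at 3.80 RPKM with miR-302d-3p against 6.33 with miR-373-3p (-0.61). Icam1, Ccl2 and Ptgs2 had changes of -0.45, -0.45 and -0.41, and Ptx3, a secreted pattern-recognition protein gene, had 0.34.

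Beyond interferon, the protein-coding genes with the largest changes in the upward direction are placed here among all 7 libraries. A low rank with miR-373-3p is built into their choice, so the ranks are a description. Among the 15 highest, miR-373-3p was the lowest of the 7 libraries for 13 genes and miR-199a-3p for the other 2, Usp18 and Mx2; the highest library was miR-1825 for 10 and miR-302d-3p for 1. Over all 74 past 1.5-fold, miR-373-3p was the lowest for 41 and miR-302d-3p the highest for 28, next to 1135 and 2027 of the 11311 protein-coding genes tested. Zfp771 (ENSRNOG00000043225), a zinc finger protein gene, led with a change of 1.37 and a ratio of 3.00 (2.42 to 3.74). It stood at 11.3 RPKM with miR-302d-3p and 3.76 RPKM with miR-373-3p, where the other 5 libraries ran from 9.71 with cel-miR-67 to 20.5 with miR-1825. Hnrnpa0, an RNA-binding protein gene, was alike: 9.51 RPKM with miR-302d-3p, 3.61 with miR-373-3p and 8.74 to 14.4 in the rest (1.19).

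Some genes of cardiac interest were also low with miR-373-3p. Nkx2-5, the homeobox factor that specifies heart muscle, was at 32.3 RPKM with miR-302d-3p and 16.8 RPKM with miR-373-3p. It was at 29.2 with cel-miR-67, 26.3 with miR-199a-3p, 39.5 with miR-590-3p, 40.2 with miR-33b* and 45.2 with miR-1825, so the miR-373-3p library alone lay under 26 RPKM. The change was 0.90 and the ratio 1.92 (1.75 to 2.10), from 1506 and 694 reads. Fbxl22, a ubiquitin ligase subunit of the sarcomere, had 9.28 and 4.25 RPKM (0.97), with 6.67 or more in every other library. Jph2, which ties the plasma membrane to the sarcoplasmic reticulum, had 59.0 RPKM with miR-302d-3p and 33.9 with miR-373-3p (0.78), next to 57.9 with cel-miR-67.

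Other members of the 15 highest were Scand1, a SCAN domain protein gene, at 31.4 and 14.9 RPKM (1.03), and Basp1, which encodes a membrane-bound signalling protein, at 13.8 and 6.42 RPKM (1.00). Bloc1s3, a subunit of the complex that builds lysosome-related organelles, differed by 1.00, and the AP-1 subunit Jund by 0.86, from 13.8 and 7.15 RPKM. The histone gene Hist1h3f had 34.3 and 17.1 RPKM (0.96). The 4 others, AABR07012583.4 (1.08), LOC100909555 (0.96), RGD1565131 (0.87) and AABR07042903.1 (0.86), carry provisional names. These 15 genes are short in the annotation behind the RPKM, with a median length of 1021 bases where all protein-coding genes tested have 2393, and the 74 genes past 1.5-fold have 1129. The part of gene length in these differences was not tested.

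Because a histone gene was among them, all 47 histone rows were counted after the values were seen. Their median change was 0.12, with 31 above 0, where 50.9% of all genes were. At least 1.5-fold higher were 4, where 0.654% of protein-coding genes were, and 0 were at least 1.5-fold lower. The 4 were Hist1h3f, H2afx and 2 rows named Hist2h2aa2, and the last had changes of 0.80 each. H2afx, the variant phosphorylated at DNA breaks, stood at 37.2 and 21.8 RPKM (0.74). The family did not move as one, since some rows were lower with miR-302d-3p and had intervals below 1. Among them were a Hist1h4b row at -0.36 (ratio 0.771, interval 0.644 to 0.923), Hist1h2bk at -0.24 and Hist1h4k at -0.22. Histone genes are near-identical copies and most of their mRNAs lack a poly(A) tail, so single rows are uncertain.

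**Figure D3:**
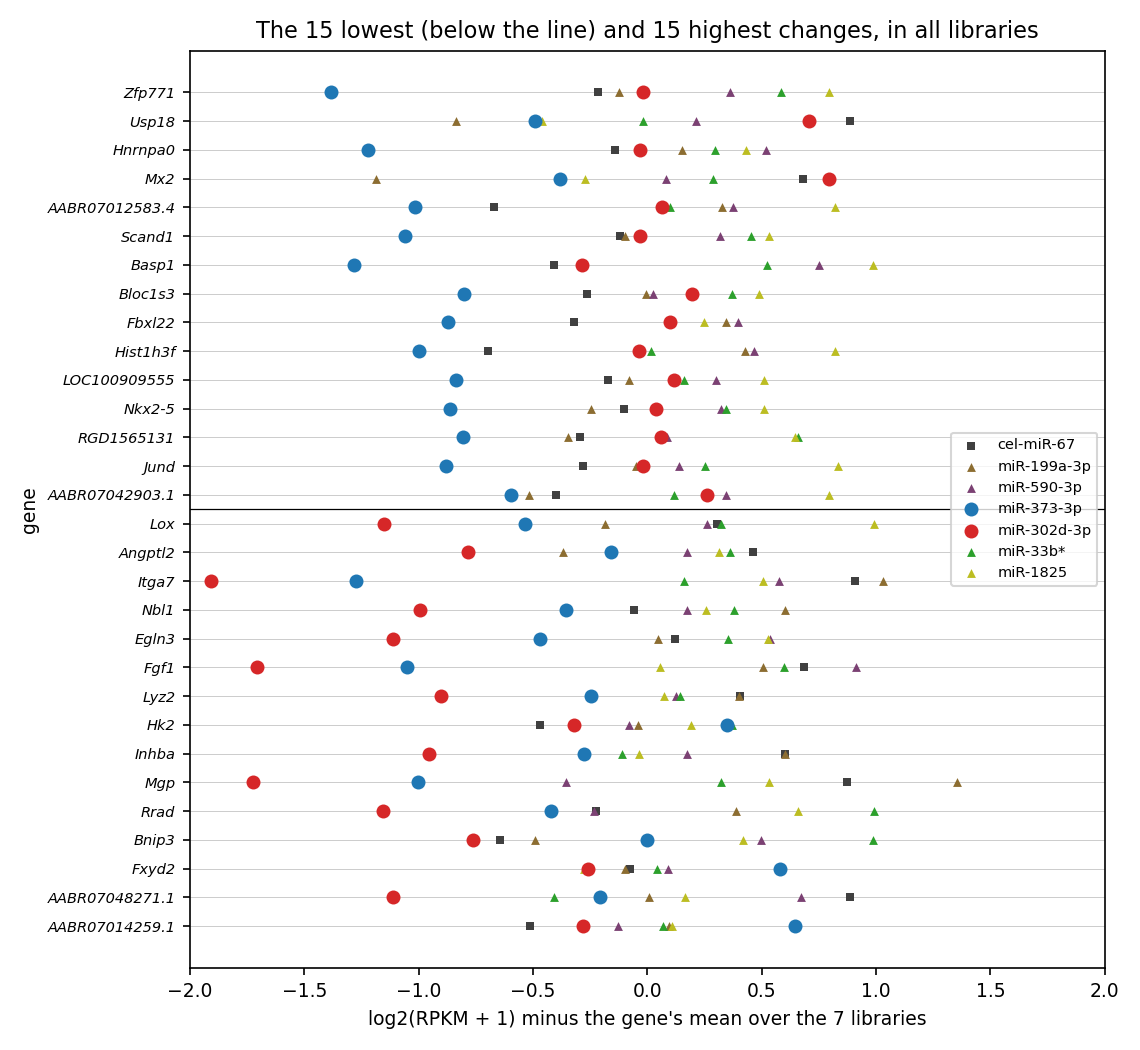
log2(RPKM + 1) of the 15 highest (above the line) and 15 lowest (below it) protein-coding changes, each as the deviation from the gene's mean over the 7 libraries, with 1 point per library. Above the line the blue point (miR-373-3p) is leftmost for 13 of 15 genes and the red point (miR-302d-3p) lies inside the range of the rest for all but Mx2; below it the red point is leftmost for 12 of 15, and blue is next to it for 9.

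In the downward direction, where the choice likewise favours a low rank with miR-302d-3p, that library was the lowest of the 7 for 12 of the 15 lowest genes, and for 9 of these miR-373-3p was the next lowest. Over all 38 past 1.5-fold, miR-302d-3p was the lowest for 22 and the pair held the lowest 2 places for 10, next to 1722 and 1561 of all 11311. In those 9 the 2 miRNAs both sat below the rest and miR-302d-3p sat further down. Itga7, the laminin-binding integrin of muscle, is 1 such gene. It read 3.00 RPKM with miR-302d-3p and 5.21 RPKM with miR-373-3p, against 27.2 with cel-miR-67, 29.7 with miR-199a-3p, 21.4 with miR-590-3p, 15.8 with miR-33b* and 20.3 with miR-1825. The change between the pair was -0.64 (ratio 0.575, interval 0.519 to 0.637), much smaller than the gap of both to every other library.

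Fgf1, a fibroblast growth factor gene, repeated this at 2.46 and 4.46 RPKM, with 10.8 RPKM or more elsewhere (-0.66). Mgp, an inhibitor of calcification made by mesenchymal cells, was at 37.4 RPKM with miR-302d-3p and 62.5 with miR-373-3p. Its level was 232 with cel-miR-67, 324 with miR-199a-3p, 98.2 with miR-590-3p, 158 with miR-33b* and 183 with miR-1825. All 5 of these exceeded both members of the pair, whose change was -0.73 (ratio 0.599, interval 0.549 to 0.653). Inhba, a subunit of activin, was at 5.44 and 9.31 RPKM (-0.68), under 10.6 RPKM or more in the rest. Lox, which cross-links collagen, was at 4.02 and 6.70 RPKM (-0.62), and 8.81 RPKM or more in the rest.

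Bnip3, a mitophagy receptor induced by low oxygen, was at 30.1 RPKM with miR-302d-3p and 51.8 RPKM with miR-373-3p, and at 32.8 with cel-miR-67, 36.6 with miR-199a-3p, 73.6 with miR-590-3p, 104 with miR-33b* and 69.6 with miR-1825. The miR-302d-3p level was close to cel-miR-67 and miR-373-3p was in the middle of the 7. Hk2, which catalyses the first step of glycolysis, was at 6.29 and 10.6 RPKM (-0.67), with cel-miR-67 the lowest at 5.56. In neither gene were the pair the 2 lowest libraries. Egln3, an oxygen-dependent hydroxylase of HIF, is again among the 9, at 18.1 RPKM with miR-302d-3p and 28.9 with miR-373-3p (-0.64). Slc2a1, the basal glucose transporter, went the opposite way, at 109 RPKM with miR-302d-3p and 69.8 with miR-373-3p (0.63), both far above the 21.6 of cel-miR-67. Rrad, a GTPase that restrains calcium channels, is among the 9 as well (7.36 and 12.9 RPKM, -0.73).

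The rest of the 15 were Nbl1, a BMP antagonist (-0.64), the secreted Angptl2 (-0.63), the lysozyme gene Lyz2 (-0.66), the sodium pump regulator Fxyd2 (-0.84) and the provisional AABR07014259.1 (-0.93) and AABR07048271.1 (-0.90). Fxyd2 rested on 46 and 79 reads, AABR07048271.1 on 43 and 84 and AABR07014259.1 on 15 and 28, the fewest of the 15 genes.

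Genes that earlier work reported as targets of the seed family were on balance slightly lower with miR-302d-3p than with miR-373-3p, though none reached 1.5-fold. Of 47 listed genes 41 were measured; their median change was -0.13, 31 were below 0 where 49.1% of all genes were, and the counting interval was below 1 in 23 and above 1 in 3, against 17% and 17.3% of all genes. The miR-302d-3p library was the lowest of all 7 for 23 of the 41 and miR-373-3p for 4, next to 1722 and 1135 of the 11311 protein-coding genes. With both libraries scaled to their listed reads instead, the median was -0.08 and 29 were below 0. Dazap2 had the largest change, at 17.8 RPKM with miR-302d-3p and 26.7 with miR-373-3p (-0.56), against 41.0 to 65.6 RPKM in the other 5 libraries. Rbl1, which encodes the retinoblastoma relative p107, was at 4.28 and 6.31 RPKM (-0.47), and the cyclin genes Ccnd2 and Ccnd1 had changes of -0.35 and -0.32.

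Several well-known members of the list were low with both miRNAs. Tgfbr2, the type II TGF-beta receptor, read 4.36 RPKM with miR-302d-3p and 5.47 RPKM with miR-373-3p, against 12.6 to 20.0 in the rest (-0.27). Lats2, a Hippo pathway kinase, was equal in the pair at 6.58 and 6.49 RPKM, against 13.3 to 19.4 in the rest (0.02). Cdkn1a, the p21 inhibitor of cyclin-dependent kinases, was at 5.44 and 6.21 RPKM (-0.16), both below the 9.03 or more of every other library. Cd44, the hyaluronan receptor, was at 11.4 and 15.3 RPKM (-0.40); there the pair did not stand apart, since miR-199a-3p was at 11.6. Btg2 (0.40), Txnip (0.23) and Mink1 (0.15) were the 3 with intervals above 1. No 3′ untranslated regions were used here, so seed sites were not counted.

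Cell cycle genes were a little lower with miR-302d-3p. The median of 31 G2 and M phase genes was -0.14, with 25 below 0, 19 intervals below 1 and 0 above; that of 25 S phase genes was -0.12, with 24 below 0, 14 intervals below 1 and 0 above. Over all genes 49.1% were below 0, and 17% of intervals lay below 1 and 17.3% above. None in either list passed 1.5-fold. Ect2, which drives cytokinesis, was at 20.9 RPKM with miR-302d-3p and 30.1 with miR-373-3p (-0.51), between 12.1 with cel-miR-67 and 66.4 with miR-1825. Rrm2, which makes deoxynucleotides, was at 44.2 and 59.8 RPKM (-0.43) and the replication factor Gins1 at 5.89 and 8.33 RPKM (-0.44). Top2a, the topoisomerase of mitotic chromosomes, had 44.9 and 55.1 RPKM (-0.29), both above 29.8 with cel-miR-67. Summed over the 31 G2 and M genes, the level was 587 RPKM with miR-302d-3p and 669 RPKM with miR-373-3p, and 327 RPKM with cel-miR-67. Scaled to the listed reads, the medians were -0.09 and -0.07.

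Of the inhibitors and p53 targets, 28 measured, Cdkn1c (p57) alone passed 1.5-fold. It was at 12.8 RPKM with miR-302d-3p and 7.26 with miR-373-3p (0.74), and at 1.22 to 3.88 RPKM in the 5 other libraries, so both members of the pair stood above the rest. Mest, another imprinted gene, had 51.2 and 36.6 RPKM (0.47), with 43.2 RPKM or less elsewhere. The list of 13 imprinted growth genes as a whole had a median of -0.03.

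Heart muscle programmes were close to level between the 2 miRNAs in their medians. These were 0.05 for 25 sarcomere genes, 0.00 for 19 myosin light chain and atrial genes and 0.00 for 21 calcium and ion channel genes, where Jph2 alone passed 1.5-fold. Single genes differed both ways, with 13 sarcomere intervals above 1 and 8 below. Over all genes 17.3% lay above 1 and 17% below. Among the fifth of genes with the highest mean RPKM, 54.2% of intervals left out 1 in either direction. In the atrial list, 10 above 0 and 9 below, Myl1 had a change of -0.52 and Gja5 0.40. The abundant Nppa was at 1649 RPKM with miR-302d-3p and 2074 with miR-373-3p (-0.33). Myl7, the atrial regulatory light chain, stood at 194 RPKM with miR-302d-3p and 165 RPKM with miR-373-3p, against 16.4 to 21.9 RPKM in the other 5 libraries. The pair was thus together and far above the rest, and differed between its members by 0.23. Myom2, an M-band protein gene, was at 8.44 and 6.32 RPKM (0.37). Cardiac transcription factors had a median of 0.12 over 16 genes, 12 above 0, where 50.9% of all genes were. Nkx2-5 was past 1.5-fold and Hand2 came next at 47.2 and 34.2 RPKM (0.45).

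In the metabolic lists medians were 0.01 for 27 nuclear oxidative phosphorylation genes, 0.03 for 25 fatty acid oxidation genes, 0.05 for 24 cholesterol genes and -0.07 for 23 glycolysis genes. The glycolysis list was spread from -0.67 to 0.63, with 13 intervals below 1 and 7 above, against 17% and 17.3% of all genes. The cholesterol genes were on the high side with both miRNAs: Fdps, a step of the mevalonate pathway, was at 82.6 RPKM with miR-302d-3p and 68.1 with miR-373-3p, against 35.7 to 52.0 elsewhere (0.27). Cox8b, a muscle cytochrome oxidase subunit, was at 3.79 and 5.93 RPKM (-0.53), below all others.

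Stress genes of the endoplasmic reticulum were slightly higher with miR-302d-3p. Of 24 unfolded protein and integrated stress response genes 21 were above 0, where 50.9% of all genes were, and the median was 0.12. The interval lay above 1 in 17 and below in 2, against 17.3% and 17% of all genes, and 0 passed 1.5-fold. Hspa5, the main chaperone of that compartment, was at 637 RPKM with miR-302d-3p and 529 RPKM with miR-373-3p (0.27), where the other libraries ran from 346 to 585. Sdf2l1 (0.55) and the transcription factor Atf3 (0.44) had the largest changes. In the heat shock and oxidative stress list, with a median of 0.02 over 23 genes, the small heat shock protein gene Hspb1 was higher, at 135 and 88.3 RPKM (0.60), miR-373-3p being the lowest library. Nqo1, an NRF2 target, was lower, at 11.1 and 16.6 RPKM (-0.54).

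Extracellular matrix genes had a median of -0.10 over 35, with 22 intervals below 1 and 7 above, against 17% and 17.3% of all genes. Besides Lox, Eln, which encodes elastin, was at 3.58 RPKM with miR-302d-3p and 5.70 RPKM with miR-373-3p, against 9.47 to 52.3 elsewhere (-0.55). In the TGF-beta and BMP list of 30, with a median of -0.05, Inhba and its antagonist Fst (-0.62) were past 1.5-fold lower and Gdf15, a stress-induced family member, was past it higher (0.64, from 6.57 and 3.86 RPKM). Medians of the Hippo list (26 genes) and the miRNA pathway list (17 genes) were -0.02 and 0.00, with none past 1.5-fold. Scaling to the listed reads moved the median of all genes to 0.05 and changed the sign of the medians of 4 lists near 0: calcium handling, TGF-beta and BMP, Hippo and imprinted genes.

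**Figure D4:**
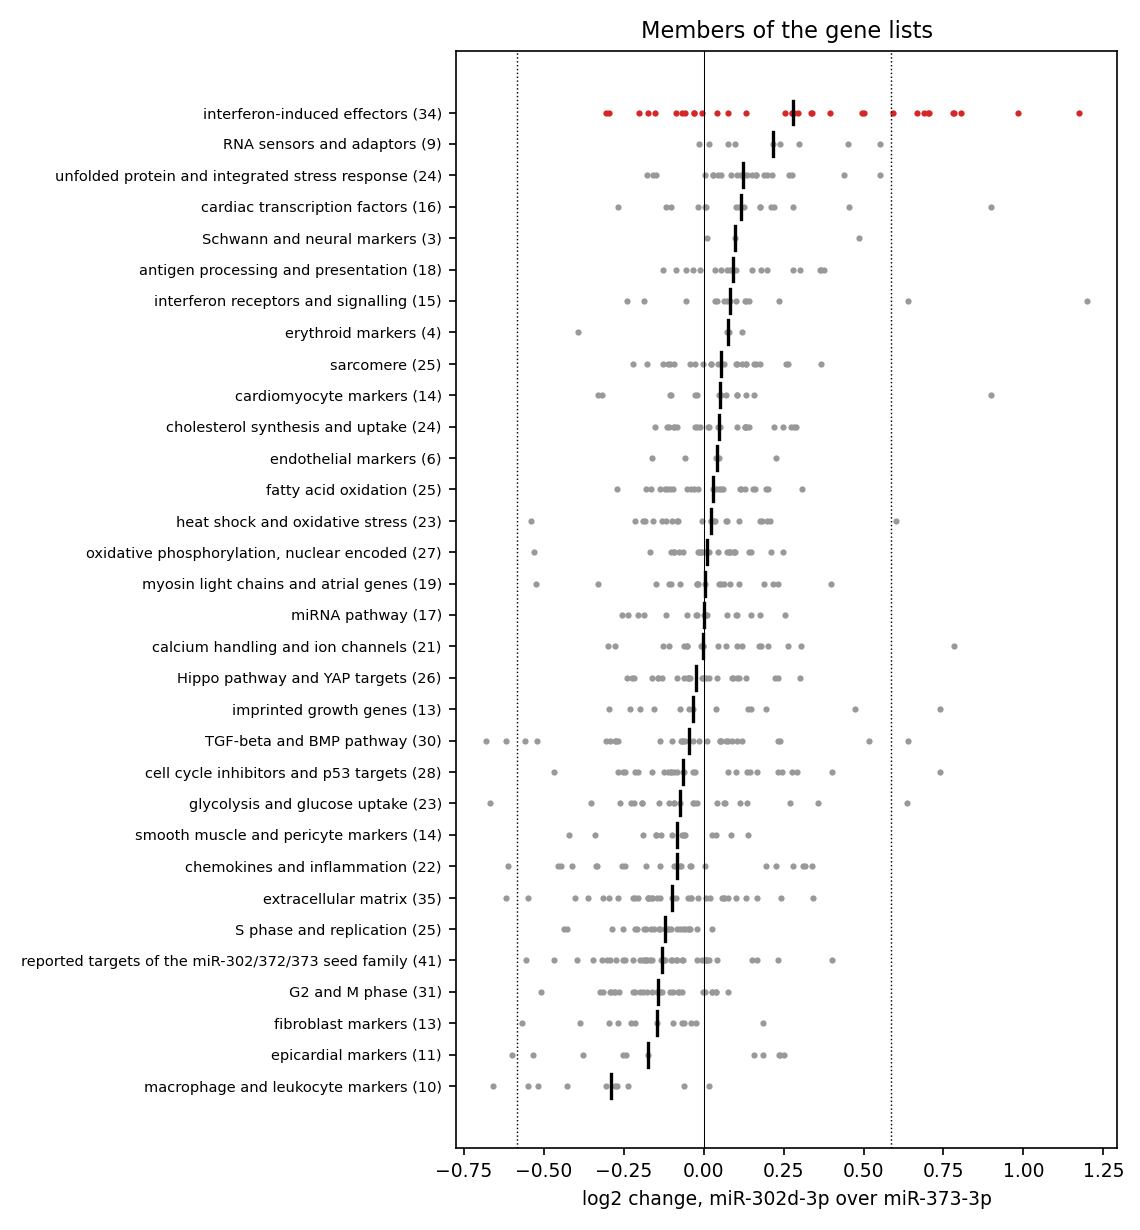
Change between miR-302d-3p and miR-373-3p (log2 scale) of every measured member of the 32 gene lists, 1 point per gene, with the number measured in brackets, a black bar at each median and dotted lines at 1.5-fold. The interferon-induced effectors (red) have the highest median at 0.28, the macrophage markers the lowest at -0.29, and the other medians lie between -0.17 and 0.22.

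Markers of other cells that a heart culture can hold were also set side by side. Macrophage and leukocyte markers summed to 24.4 RPKM with miR-302d-3p, the lowest of the 7 libraries, and to 34.0 with miR-373-3p, the highest, with 26.6 to 33.4 in the others. The levels are low: of 16 matched markers Ptprc, Adgre1, Itgam, Aif1, Cd163 and Laptm5 were under a mean of 1 RPKM. The 10 that were measured had a median change of -0.29, with 9 below 0 and 5 intervals below 1, against 49.1% and 17% of all genes. Lyz2 was at 2.20 RPKM with miR-302d-3p and 4.06 with miR-373-3p, and 5.30 or more in the rest. C1qc, a complement gene of macrophages, was at 2.14 and 3.50 RPKM (-0.52), where miR-373-3p was the highest of all. Macrophages and leukocytes make both chemokines and interferon-induced proteins, and their part in the differences was not tested.

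Fibroblast markers summed to 750 RPKM with miR-302d-3p and 885 RPKM with miR-373-3p, both under the 956 to 1484 RPKM of the other libraries. Of 13 measured, 12 were below 0, where 49.1% of all genes were, and the median was -0.15. Scaled to the listed reads, 10 were below 0 and the median was -0.09. S100a4, a calcium-binding protein gene of fibroblasts and other cells, gave 110 and 163 RPKM (-0.57), against 340 RPKM or more elsewhere. Col3a1, the fibrillar collagen, gave 262 and 304 RPKM (-0.21). The matrix genes above and these markers were both lower on balance. Some of the markers, such as Col3a1, are themselves matrix genes, so the groups are not independent. Whether cell mixture had a part in these differences was not tested. Epicardial markers had a median of -0.17 over 11 genes, with the mesothelial gene Msln at 5.73 and 9.20 RPKM (-0.60). Their sums were near equal, at 60.9 and 63.9 RPKM. Smooth muscle and pericyte markers had a median of -0.08 over 14. Endothelial markers summed to 22.1 and 23.6 RPKM, with Cdh5, Tie1, Vwf, Emcn, Esam, Cldn5, Erg and Ramp2 under 1 RPKM. Erythroid markers summed to 6.36 and 6.88 RPKM and Schwann and neural markers to 14.7 and 12.5 RPKM, the noradrenaline enzyme gene Dbh being at 4.45 and 2.89 RPKM (0.49), above the 0.985 or less of the other 5. Cardiomyocyte markers summed to 21864 and 21990 RPKM.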

How the data were processed

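The authors deposited RPKM values per gene for 7 libraries, each transfected with 1 miRNA, and, beside them, a ratio over cel-miR-67 for each library. Per the submitters' processing notes, STAR 2.7, edgeR and the build Rnor_6.0 were used, with no role or order stated; for the read counter, annotation and strand setting, the sources used here name nothing. The deposited ratio columns were not used for results. Whole reads were recovered from the RPKM as multiples of what 1 read is worth for each gene length and library. The library sizes this implies were 34708142 (miR-302d-3p) and 30663446 (miR-373-3p). Listed reads came to 92.1% and 95.8% of these, and to 110% of the implied size for cel-miR-67. The sizes behind the RPKM are thus not plain totals of listed reads, and the counting intervals rest on them. No count test was run, since there was 1 library for each miRNA. Changes are log2((RPKM + 1)/(RPKM + 1)) for genes averaging 1 RPKM or more over the libraries, and intervals are 95% Clopper-Pearson intervals of the read rate ratio (scipy 1.17.1, pandas 2.3.3). Genes were named by rule: the 15 highest and 15 lowest protein-coding changes among genes averaging 5 RPKM or more with an interval without 1, the 3 highest and 3 lowest other rows, the list members past 1.5-fold or with the largest changes, and members of the interferon, sensor and seed target lists. Of 759 list symbols, 702 were matched and 601 measured. The comparison and the lists were chosen with earlier results of these data known. The calculations were tested on simulated data. Alternatives were another pseudocount, another filter, protein-coding genes only, other scalings and the counting interval.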

Additional observations from a re-analysis of the deposited data

How the results depend on the processing

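The numbers of genes past a fold depended on the pseudocount and the filter. At 2-fold, 35 genes were higher and 17 lower; at 1.5-fold, 175 and 121. A pseudocount of 0.1 gave 89 and 68 at 2-fold and 299 and 270 at 1.5-fold, and a pseudocount of 5 gave 0 and 0, then 42 and 13. A mean of at least 5 RPKM (7846 genes) gave 10 and 3, then 70 and 34. Protein-coding genes alone gave 7 and 0, then 74 and 38. Requiring the counting interval to leave out 1 gave 25 and 11, then 115 and 58. With no filter on the mean, 28 genes were 2-fold lower. Scaling to the listed reads gave 209 higher and 94 lower at 1.5-fold. The median of the interferon-induced effectors was 0.28 and ranged from 0.15 with a pseudocount of 5 to 0.37 with a mean of at least 5 RPKM, above 0 in every setting run for it. Of 230 alternative values for 46 named genes, 0 changed sign, and 23 moved by more than the counting interval allows, 21 of them with a pseudocount of 5. No paired analysis was possible because there was 1 library for each miRNA, and no replicate could be left out. Genes with few reads, such as the short RNA rows, set the limit of what can be told apart.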
